A study of Homo sapiens with 16 samples.

Results

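Aminoacyl-tRNA synthetases are the enzymes that attach each amino acid to its transfer RNA. The 36 genes described here were taken by symbol from the tables of RNA-seq, which listed 23597 genes, and of Ribo-seq, which listed 19201. Of them, 20 encode cytosolic enzymes or subunits and 16, with symbols ending in 2, encode mitochondrial enzymes. All 36 were in both tables and all 36 passed the filter on low counts, among 13177 genes tested in RNA-seq and 11288 in Ribo-seq. The cells were WI-38, human lung fibroblasts that cease to divide after repeated passage. Ribo-seq sequences the stretches of mRNA that ribosomes cover, called footprints. The series asks how the heat shock response and protein homeostasis differ in senescent cells. Passage 24 cells were the young state and passage 36 cells the senescent state, and either state was left unheated as control or held at 44 °C for 2 h. Cells of all groups, controls included, had first been starved of serum for 24 h and then given serum again. Each combination of assay, state and treatment had 2 libraries, 16 in all, and nothing in the labels says that the 2 came from separate cultures. The p-values therefore measure only the spread between these libraries, which may be technical.

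Cytosolic synthetases charge the transfer RNAs used by cytosolic ribosomes, and a separate nuclear-encoded set is imported to charge those of the mitochondrion. The symbols give the amino acid by its letter, as in MARS for methionine. EPRS carries a glutamyl and a prolyl activity in a single chain, FARSA and FARSB are the subunits of a single phenylalanyl enzyme, and KARS and GARS each supply both compartments. Mitochondria form glutaminyl-tRNA by another route, so QARS has no mitochondrial counterpart. Several cytosolic synthetases sit in a multisynthetase complex held together by the proteins AIMP1, AIMP2 and EEF1E1, and by their folds synthetases fall into class I and class II. Several cytosolic synthetase genes are known targets of the factor ATF4, which is made when amino acids run short or initiation of translation is limited.

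The RNA-seq libraries held 26434514 to 37126871 counts, of which 84688 to 142064 fell on the 36 genes, and the Ribo-seq libraries 4581141 to 9104077, of which 24832 to 44461 did. The young control Ribo-seq libraries stood apart. Their counts differed by a chi-square of 1.74 per degree of freedom, against 17.7 to 40.2 for the other Ribo-seq pairs and 68.7 to 120 for RNA-seq pairs, where sampling noise alone gives about 1. They were kept as 2 samples, and calls on heat shock in footprints are also given with them counted as 1. All 8 fibroblast markers were detected, with COL1A1 at 1486 to 3377 TPM (the RSEM transcript level, scaled by gene length and library total) in RNA-seq, while CDH5, CD3E, MS4A1 and SFTPC, markers of endothelial, T, B and alveolar cells, were at 0 in every RNA-seq library. Of 4 endothelial markers, 1 (VWF) passed the filter on low counts in RNA-seq, at 0.10 to 0.32 TPM. Its value in senescent against young cells was 0.72 at rest and 1.17 under heat shock. Of 6 epithelial markers 4 passed, which were EPCAM at 0.16 to 0.43 TPM, KRT8 at 11.9 to 24.2, KRT18 at 52.2 to 94.1 and KRT19 at 46.6 to 107. Their median in senescent against young cells was 0.51 at rest. Of 4 immune markers 1 passed, CD68 at 103 to 178 TPM. Each change is printed as a log2 fold change ± SE, with n = 2 libraries in a group, from edgeR's quasi-likelihood test on counts, with Benjamini-Hochberg adjusted p-values and a threshold of 0.05. They are relative to the bulk of genes, because TMM scaling sets the bulk of genes near 0. With scaling by library size alone, the median change of all genes on heat shock moved to −0.27 in young and −0.23 in senescent cells for RNA, and to −0.28 and −0.25 for footprints. In bulk samples fewer cells of a type and less RNA per cell cannot be told apart.

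Cytosolic synthetases were the more abundant set in every library. TPM allows genes to be compared. The summed RNA level of the 20 cytosolic genes was 1801 to 2316 TPM over the 8 RNA-seq libraries, and that of the 16 mitochondrial genes 260 to 403 TPM. In Ribo-seq the sums were 1696 to 2094 and 179 to 274 TPM, so that the sets did not overlap in either assay.

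Among cytosolic genes the highest mean RNA levels over all conditions were 237 TPM for SARS, the seryl enzyme, 180.1 for GARS and 170 for KARS. GARS and KARS did not differ beyond the spread of their libraries. The lowest cytosolic RNA levels were 35.6 TPM for LARS, 36.0 for DARS and 55.2 for CARS. Among mitochondrial genes IARS2, the isoleucyl enzyme, stood highest at 79.5 TPM, above those 3 cytosolic genes, followed by CARS2 at 49.7 and RARS2 at 44.2. PARS2 at 3.02 TPM, MARS2 at 4.20 and VARS2 at 7.33 were the lowest of the 36 in RNA.

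**Figure D1:**
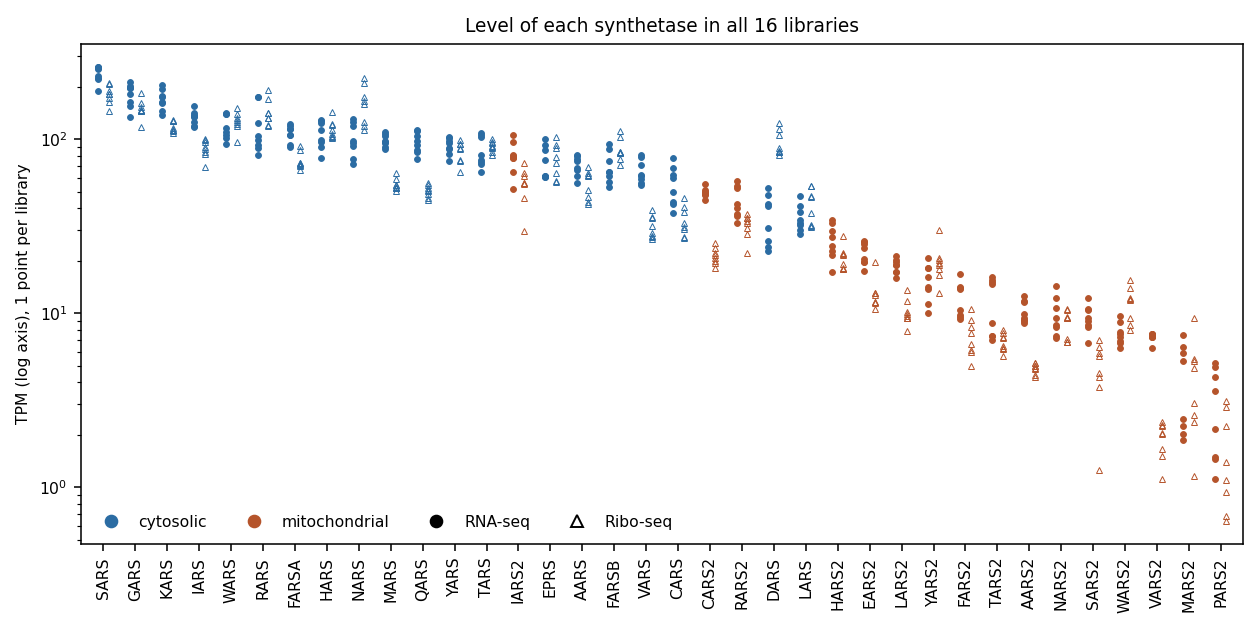
RNA-seq (filled circles) and Ribo-seq (open triangles) level of each of the 36 synthetases in TPM on a log axis, with 1 point per library, ordered by mean RNA level. Cytosolic genes (blue) fill the upper range from SARS downward, and IARS2 is the highest mitochondrial gene (orange).

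The order in footprints differed in part. SARS led at a mean of 182 TPM, with NARS at 162 and GARS at 150.2, and the lowest cytosolic genes were VARS at 31.6, CARS at 34.3 and LARS at 41.8 TPM. DARS, the aspartyl enzyme, was next to last in cytosolic RNA but had the highest ratio of footprint to RNA TPM, 2.01 to 3.10 over the 4 conditions. VARS2, the mitochondrial valyl enzyme, had the lowest ratio, 0.233 to 0.328. The median ratio of the cytosolic genes was 0.723 in young controls and 0.876 after heat shock in young cells. It was 0.853 in senescent controls and 1.03 after heat shock there. That of the mitochondrial genes was 0.608, 0.660, 0.665 and 0.674 in the same order, and that of all genes 0.860, 0.936, 0.948 and 0.936. The mitochondrial median thus lay below both the cytosolic and the general one in all 4 conditions. These ratios set separately scaled tables side by side and carry no test.

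On heat shock the RNA of 3 mitochondrial synthetases lay low in both states. They were MARS2, which charges methionine, PARS2, which charges proline, and TARS2, which charges threonine. MARS2 RNA was 10.2 and 8.58 CPM (counts scaled to the TMM-adjusted library total) in the young controls and 4.03 and 3.52 after heat shock. In senescent cells it was 8.06 and 10.1 CPM in controls and 3.68 and 3.62 after heat shock. All 4 heat-shocked libraries lay below all 4 controls, with 83 to 130 raw counts against 248 to 429.

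PARS2 RNA was 5.12 and 5.80 CPM in young controls and 2.72 and 1.95 after heat shock, and in senescent cells 4.19 and 5.20 against 1.88 and 1.66. TARS2 RNA was 19.2 and 19.5 CPM in young controls and 12.3 and 11.6 after heat shock, and in senescent cells 20.0 and 19.6 against 9.83 and 12.3. For both genes all heat-shocked libraries lay below all controls, and the drop was smaller for TARS2.

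The test without regard to replicate numbers called none of the 36 genes in young or in senescent RNA. The background share of genes called by it was 1.14% in young and 0.577% in senescent cells. An unadjusted p under 0.05 was seen for 3 and 4 of the 36. The share of all genes with such a p is not given here or below, so these counts are no excess over a background. In RNA-seq the same-numbered libraries deviated together across groups, so the test was also run with replicate number as a block. DARS showed this pairing plainly, at 69.3 to 74.4 CPM in all 4 libraries numbered 1 and 38.7 to 46.4 CPM in all 4 numbered 2.

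With the block, MARS2, PARS2 and TARS2 fell in both states. Each change and SE here and below is from the fit without the block, also where a block p-value stands beside it. In young cells MARS2 changed by −1.31 ± 0.26 (edgeR adjusted p = 0.0655 without and 0.00769 with the block), PARS2 by −1.22 ± 0.30 (edgeR adjusted p = 0.145 and 0.0242) and TARS2 by −0.70 ± 0.22 (edgeR adjusted p = 0.270 and 0.0329). In senescent cells MARS2 changed by −1.31 ± 0.26 (edgeR adjusted p = 0.107 and 0.0118), PARS2 by −1.41 ± 0.31 (edgeR adjusted p = 0.149 and 0.0223) and TARS2 by −0.84 ± 0.22 (edgeR adjusted p = 0.235 and 0.0229). Thus 3 of 16 mitochondrial and 0 of 20 cytosolic genes were called lower with the block in each state, where 5.13% of all genes were called lower in young and 3.62% in senescent cells. DESeq2 without the block called MARS2 in young cells and MARS2 and PARS2 in senescent cells. The share of all genes called by DESeq2 is not given here or below, so its calls are not set against a background.

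These calls depended on single libraries, while the direction of all 3 genes was the same whichever of the 8 RNA-seq libraries was left out. In young cells with the block, MARS2 was lost without young control replicate 1 (edgeR adjusted p = 0.0974), young heat replicate 1 (0.0563) or young heat replicate 2 (0.0707). PARS2 was lost on leaving out any of the 4 young libraries (edgeR adjusted p = 0.0598 to 0.196). TARS2 was lost on leaving out any of the 4 young libraries or either senescent control (edgeR adjusted p = 0.0523 to 0.277). In senescent cells MARS2 was lost without senescent control replicate 2 (edgeR adjusted p = 0.0643). PARS2 was lost without senescent control replicate 1 or 2 or senescent heat replicate 2, and TARS2 without senescent control replicate 1 or 2 or senescent heat replicate 1, at edgeR adjusted p of 0.0562 to 0.164. Calls were also gained. Without senescent heat replicate 2, HARS2 and the cytosolic GARS were called lower in senescent cells.

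**Figure D2:**
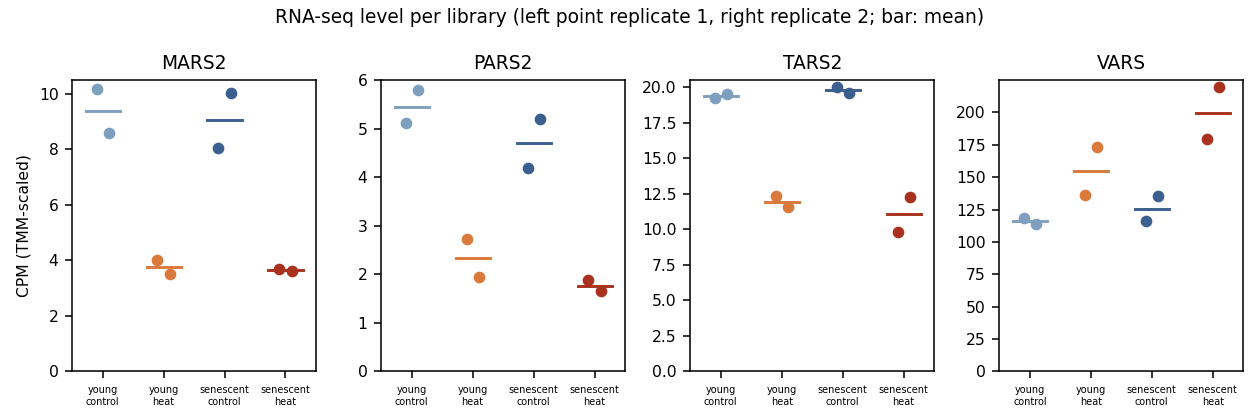
RNA-seq level in TMM-scaled CPM of the 4 synthetases called with replicate number as a block, in each library (left point replicate 1, right point replicate 2, bar the mean of 2), with axes from 0. MARS2, PARS2 and TARS2 lie lower in all 4 heat-shocked libraries than in all 4 controls, and VARS lies higher.

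With all libraries, the other 13 mitochondrial genes did not pass the test in either state, with or without the block. The median RNA change on heat shock of all 16 was −0.20 in young and −0.17 in senescent cells, with 11 of 16 below 0 in each state, while the median of all genes was 0.01 and −0.01. In young cells all 7 mitochondrial class II genes were below 0, and 5 of the 9 of class I were above it. This split was weaker in senescent cells, where SARS2 of class II lay above 0, at 0.15. Of class I, EARS2 and IARS2 then lay below 0, at −0.02 and −0.16, and WARS2 above it, at 0.03. The highest mitochondrial values were 0.22 ± 0.19 for CARS2 in young cells and 0.22 ± 0.22 for VARS2 in senescent cells, and neither passed the test. In young cells 9 mitochondrial genes had both heat-shocked libraries below both controls (20.7% of all genes) and 4 had both above (19.5%). In senescent cells 7 lay below (16.4% of all genes) and 1, VARS2, above (14.7%).

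MARS2 and PARS2 differ from the other members in gene structure. In the GENCODE annotation MARS2 has 1 exon and PARS2 has 2, while TARS2 has 18 and the medians were 17 for cytosolic and 15 for mitochondrial genes. Of 274 tested genes with 1 exon, 18.3% were called lower with the block in young and 19.0% in senescent cells, and of 562 genes with 2 exons, 14.8% and 13.0%. Over the 12516 tested genes matched by symbol the shares were 5.15% and 3.65%. GC content also moved with the RNA change on heat shock, with a Spearman rho across these genes of 0.147 in young and 0.304 in senescent cells. For exon number rho was 0.043 in young and 0.166 in senescent cells. GC content was 48.4% for MARS2 and 54.0% for PARS2, on either side of the mitochondrial median of 52.4%. Genes are not independent replicates, and the part of exon number or GC content in the MARS2 and PARS2 values was not tested.

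The promoters of these genes were read from RefSeq (GRCh38.p14; 250 bases before to 50 after the start). The deposited tables were made on hg19, so the coordinates apply to GRCh38.p14 only. A window was found for 30 of the 36 members. The short stretches below are shown because MARS2 and PARS2 had the largest RNA drops. Capitals mark an E-box (CACGTG) in MARS2 and a heat shock pair (TTCNNGAA, or GAANNTTC) in PARS2. With their flanking bases, the printed stretches lie at chr2:197705348-197705373, plus strand, for MARS2. For PARS2 they lie at chr1:54764721-54764748 and chr1:54764639-54764666, minus strand.
MARS2 promoter: gcgcctctcaCACGTGctgtcagaac
PARS2 promoter, first: tagaaagtacTTCCGGAAcggtgattta
PARS2 promoter, second: ttggctacacTTCCGGAAaacctctcac
The E-box was searched on both strands and was in 1 of the 21 windows of 16 matched cytosolic genes (IARS). It was in 4 of the 18 windows of 14 matched mitochondrial genes, against 7.26% of 35116 promoter windows. These 4 windows belong to 3 genes, CARS2, EARS2 and MARS2, because 2 overlapping EARS2 windows hold the same site. On heat shock CARS2 and EARS2 RNA changed by 0.22 and 0.11 in young cells and by 0.17 and −0.02 in senescent cells. The pair was in 2 of the 21 cytosolic windows (GARS and NARS) and 2 of the 18 mitochondrial windows (HARS2 and PARS2), against 13.5% of windows. Both PARS2 matches also hold GGAA, the core of ETS-family sites. A match describes these letters and is no measured site.

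Among cytosolic synthetases, VARS, the valyl enzyme, was the single gene to pass the RNA test, in senescent cells with the block. VARS RNA was 116 and 135 CPM in senescent controls and 179.9 and 220 after heat shock, and in young cells 119 and 114 against 136 and 173, so heat-shocked libraries lay above controls in both states. Its change in senescent cells was 0.67 ± 0.21 (edgeR adjusted p = 0.352 without and 0.0267 with the block), and 2.66% of all genes were called higher with the block there. The block call was lost without senescent control replicate 1 or 2, senescent heat replicate 2 or young heat replicate 2 (edgeR adjusted p = 0.178, 0.0901, 0.0762 and 0.0513). In young cells, where 3.64% of all genes were called higher with the block, 0 of 20 cytosolic genes were. Without senescent heat replicate 1 or 2, AARS and YARS were called higher there, AARS at an edgeR adjusted p of 0.0150 and 0.0155 in turn.

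Among the other cytosolic genes the values in young cells ran from −0.33 ± 0.27 for RARS to 0.54 ± 0.27 for AARS, the alanyl enzyme (edgeR adjusted p = 0.599 without and 0.0921 with the block). The median was 0.13 in young cells, with 14 of 20 above 0, and 0.00 in senescent cells, with 10 of 20 above 0. In senescent cells RARS was lowest at −0.48 ± 0.27. Both heat-shocked libraries lay above both controls for AARS, IARS, KARS, VARS and YARS in young and for FARSA, IARS and VARS in senescent cells. These were 5 and 3 of 20 genes, near the share of all genes (19.5% and 14.7%). They lay below for HARS and RARS in young and for HARS in senescent cells, 2 and 1 of 20, where 20.7% and 16.4% of all genes did.

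The promoters were also searched for the amino acid response core (TGATGNAAN, either strand), to which ATF4 and its partners bind. It was in 7 of the 21 windows of 16 matched cytosolic genes, each in another gene, and in 1 of the 18 windows of 14 mitochondrial genes (YARS2), against 3.61% of all windows. The 7 cytosolic stretches are printed with the core in capitals. The capitals are alike because the search fixed every letter of the core except N.
AARS: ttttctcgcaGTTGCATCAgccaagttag
CARS: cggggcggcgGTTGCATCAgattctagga
GARS: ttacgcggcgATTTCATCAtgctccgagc
IARS: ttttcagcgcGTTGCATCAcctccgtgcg
MARS: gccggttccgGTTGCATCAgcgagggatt
NARS: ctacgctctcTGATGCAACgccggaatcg
TARS: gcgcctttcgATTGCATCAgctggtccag
In GRCh38.p14 they lie at chr16:70289676-70289704 (minus strand), chr11:3057408-3057436 (minus), chr7:30594834-30594862 (plus), chr9:92293693-92293721 (minus), chr12:57488053-57488081 (plus), chr18:57621804-57621832 (minus) and chr5:33440956-33440984 (plus), in that order. NARS carries the core on the opposite strand to the others. The median RNA change on heat shock of these 7 genes was 0.23 in young and −0.01 in senescent cells, and of the 9 matched cytosolic genes without the core 0.05 and −0.03. For footprints the medians were 0.24 and 0.38 with the core and 0.19 and 0.39 without it. No test compares these small groups.

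Footprints on 2 cytosolic synthetases rose on heat shock in senescent cells. EPRS, the glutamyl and prolyl enzyme, had 394 and 319 CPM in senescent controls and 596 and 617 after heat shock. FARSB, the phenylalanyl subunit, had 159 and 144 CPM in controls and 242 and 258 after heat shock. For both genes the heat-shocked libraries lay well above the controls.

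EPRS footprints rose by 0.77 ± 0.19 (edgeR adjusted p = 0.0435) and FARSB footprints by 0.72 ± 0.19 (edgeR adjusted p = 0.0467). These were 2 of 20 cytosolic and 0 of 16 mitochondrial genes, where 8.35% of all genes were called and 3.12% called higher. The 2 calls were close to the threshold. Both were lost with the young control libraries counted as 1 sample (edgeR adjusted p = 0.124 for EPRS and 0.141 for FARSB). Both were also lost without young control replicate 1 or 2, senescent control replicate 1 or 2 or senescent heat replicate 2, at edgeR adjusted p of 0.0906 to 0.142. FARSB was lost without young heat replicate 1 (edgeR adjusted p = 0.0521) and EPRS without senescent heat replicate 1 (edgeR adjusted p = 0.0525). With library-size scaling alone the adjusted p was 0.0913 for EPRS and 0.117 for FARSB.

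**Figure D3:**
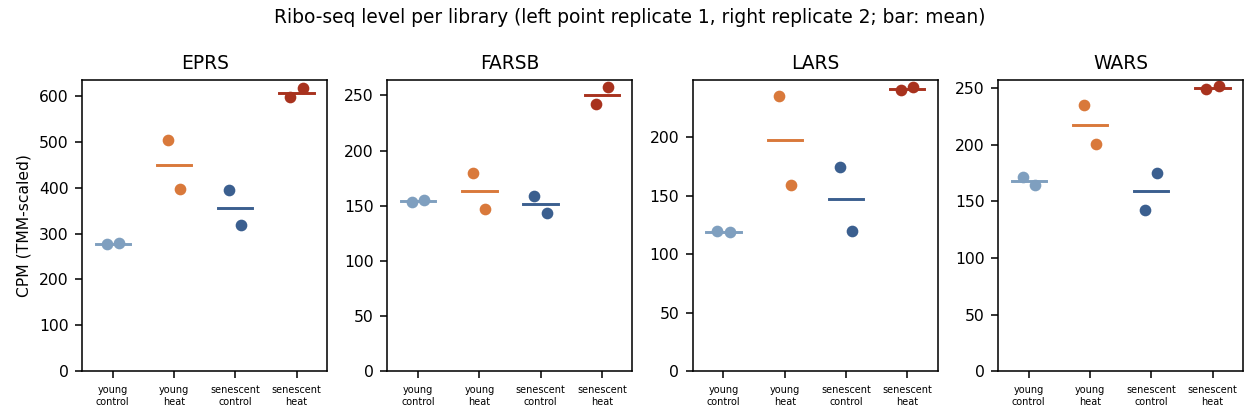
Ribo-seq level in TMM-scaled CPM of EPRS, FARSB, LARS and WARS in each library (left point replicate 1, right point replicate 2, bar the mean of 2), with axes from 0. Both senescent heat-shocked libraries lie above both senescent controls in all 4 panels, and FARSB does not separate in young cells.

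The rest of the cytosolic set lay in the same direction without passing the test. All 20 cytosolic genes were above 0 in senescent footprints, with a median of 0.38 against 0.03 for all genes, and 15 had both heat-shocked libraries above both controls (26.8% of all genes). The direction depends on the scaling, since with library size alone 12 of 20 were above 0 and the median was 0.11, still above the all-gene median of −0.25. LARS had 174 and 120 CPM in senescent controls and 240 and 243 after heat shock, a change of 0.72 ± 0.25 (edgeR adjusted p = 0.103). WARS, the tryptophanyl enzyme, had 142 and 175 CPM in controls and 249 and 251 after heat shock, a change of 0.66 ± 0.19 (edgeR adjusted p = 0.0645). IARS was the lowest cytosolic gene at 0.10 ± 0.19, and it lay below 0 with library size alone.

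Mitochondrial footprints in senescent cells had a median of 0.13, with 9 of 16 above 0. MARS2 was 17.9 and 9.97 CPM in controls and 6.64 and 5.94 after heat shock, or 86, 59, 49 and 28 raw counts, a change of −1.13 ± 0.44 (edgeR adjusted p = 0.128). PARS2 was 2.08 and 3.38 CPM in controls and 1.63 and 1.27 after heat shock, from 6 to 20 raw counts, and at this depth no difference was detectable. MARS2 and PARS2 were the 2 mitochondrial genes with both heat-shocked libraries below both controls (27% of all genes), and 4 lay above. SARS2, at 0.55 ± 0.61, had the highest mitochondrial change, which rested on a senescent control library with 10 counts beside another with 68. TARS2 footprints did not follow its RNA, at 15.4 and 16.2 CPM in controls and 16.4 and 20.0 after heat shock.

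In young footprints 0 of 36 genes passed edgeR's test, where 1.15% of all genes did. Of the 36, 7 had an unadjusted p under 0.05, a count to which the 1.15%, by adjusted p, does not apply. DESeq2 called EPRS and NARS, again without a share of all genes beside it. With the young controls counted as 1 sample DESeq2 called 0 (adjusted p = 0.674 for EPRS and 0.593 for NARS). NARS, the asparaginyl enzyme, had 193 and 214 CPM in young controls and 445 and 303 after heat shock, a change of 0.88 ± 0.25 (edgeR adjusted p = 0.149). EPRS had 277 and 279.8 CPM in controls and 503 and 397 after heat shock. For both genes the groups did not overlap, and the heat-shocked libraries differed from each other more than the controls did.

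The cytosolic median in young footprints was 0.23, against −0.01 for all genes, with 19 of 20 above 0 and KARS lowest at −0.02 ± 0.18. With library size alone 8 of 20 were above 0 and the median was −0.05, against −0.28 for all genes. The mitochondrial median was 0.08, with 8 of 16 above 0. EARS2 was the highest mitochondrial gene of at least 10 CPM at 0.36 ± 0.27 and FARS2 the lowest at −0.51 ± 0.28. Both heat-shocked libraries lay above both controls for 14 cytosolic and 6 mitochondrial genes (27.4% of all genes), and below for 0 and 5 (31.6%). The 5 were FARS2, HARS2, MARS2, PARS2 and SARS2.

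**Figure D4:**
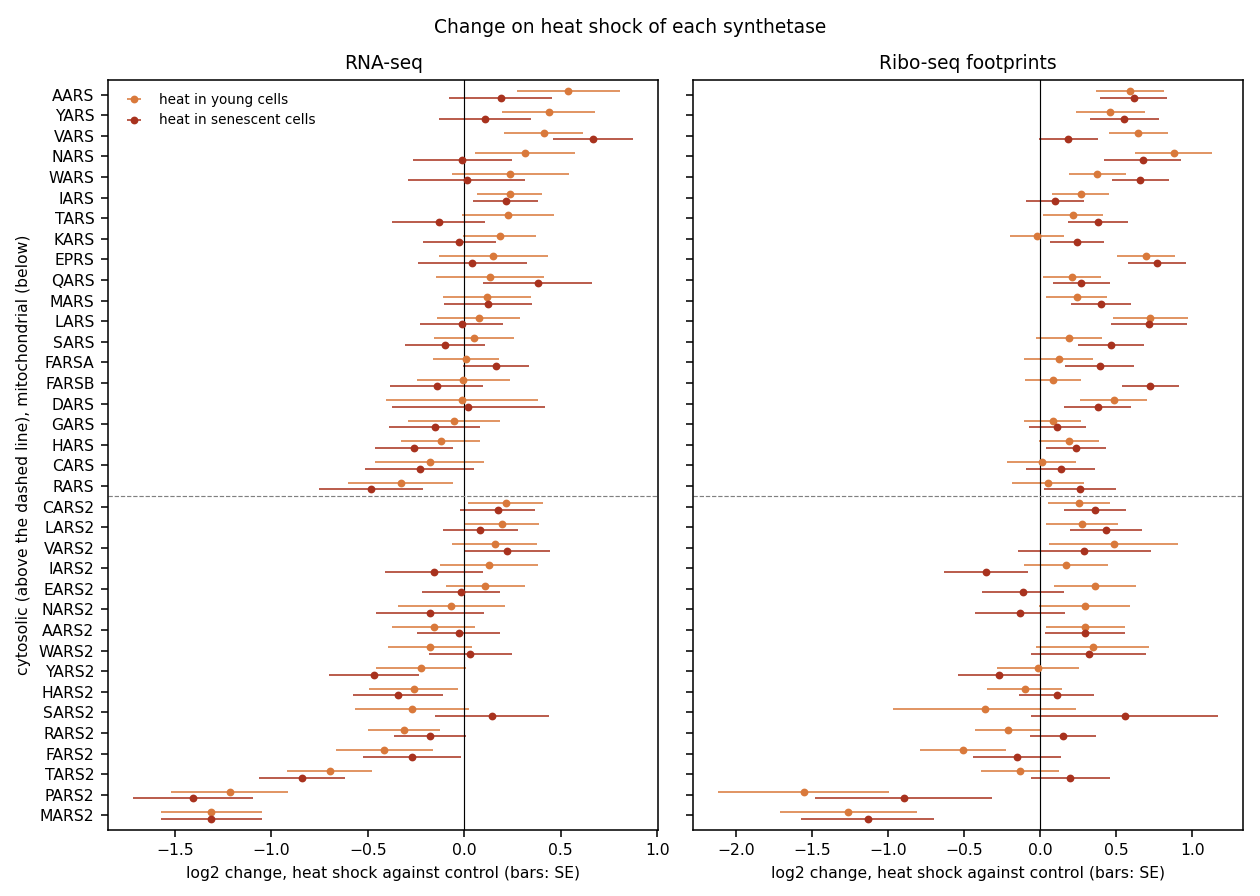
Change on heat shock of each synthetase, as log2 heat shock against control with SE, in RNA-seq (left) and footprints (right), for young (orange) and senescent (dark red) cells, cytosolic genes above the dashed line. Cytosolic footprint changes lie to the right of 0 in senescent cells, and MARS2 and PARS2 lie at the far left in both assays.

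Translational efficiency, the footprint change minus the RNA change in a fit of all 16 libraries over 11166 genes, was called by edgeR for 0 of the 36 genes on heat shock in young cells (0.0896% of all genes) or in senescent cells (2.43%). An unadjusted p under 0.05 was seen for 0 and 2 of them, again without the share of all genes. In senescent cells the cytosolic median was 0.41, with 17 of 20 above 0, and the mitochondrial median 0.22, with 14 of 16, against 0.05 for all genes. TARS2 had the highest value, 1.01 ± 0.33 (edgeR adjusted p = 0.143), its RNA being lower and its footprints not. DESeq2 called TARS2. FARSB had 0.84 ± 0.31 (edgeR adjusted p = 0.189), and VARS, the gene whose RNA rose with the block, had the lowest cytosolic value, −0.51 ± 0.28 (edgeR adjusted p = 0.389). These efficiency values took no account of replicate number, although the RNA-seq libraries were taken to be paired by it. With replicate number as a block, FARSB and TARS2 were called higher in senescent cells. The share of all genes called in efficiency with the block is not given. In young cells the medians were 0.13 for both sets, with LARS highest among cytosolic genes at 0.65 ± 0.34 and TARS2 among mitochondrial genes at 0.56 ± 0.33.

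Cytosolic and mitochondrial sets were also compared within each library, where scaling of the library cancels except through the prior count of 2. This count, added before taking logs, weighs most on genes with few counts. The mean log2 CPM of cytosolic genes exceeded that of mitochondrial genes in RNA by 2.57 and 2.50 in young controls and by 2.73 and 2.61 in senescent controls. After heat shock the gap was 2.92 and 2.93 in young and 2.91 and 3.03 in senescent cells, so that all 4 heat-shocked libraries lay above all 4 controls. In footprints the gap was 3.20, 3.17, 3.45 and 3.18 in controls and 3.72, 3.49, 3.64 and 3.78 after heat shock, again without overlap. Without MARS2, PARS2 and TARS2 the gap in RNA was 2.31 and 2.23 in young controls against 2.50 and 2.45 after heat shock, and in senescent cells 2.44 and 2.36 against 2.45 and 2.54. In footprints it was 2.97 and 2.92 against 3.28 and 3.06 in young cells, and 3.19 and 2.91 against 3.25 and 3.38 in senescent cells. The separation in senescent RNA was then narrow, and the removed genes were chosen after their values were seen.

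**Figure D5:**
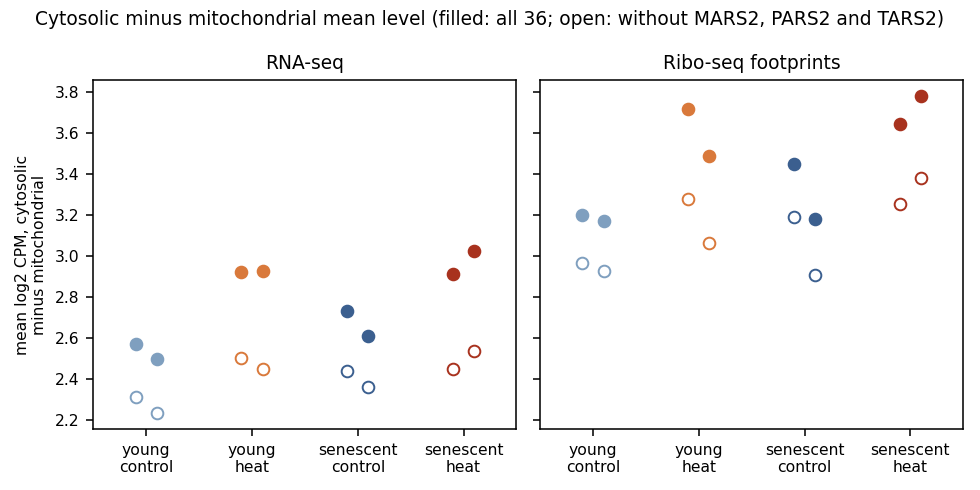
Mean log2 CPM of the 20 cytosolic minus that of the 16 mitochondrial synthetases in each library, in RNA-seq (left) and footprints (right), filled for all genes and open without MARS2, PARS2 and TARS2. Filled points of heat-shocked libraries lie above those of controls in both assays, and open points in senescent RNA nearly meet.

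Of 13 enzyme pairs for the same amino acid, the mitochondrial gene had the lower log2 change of the 2 on heat shock in 10 pairs in young RNA and in 8 in senescent RNA. The median difference was −0.32 and −0.17. In footprints this held for 12 and 10 pairs, with medians of −0.29 and −0.28. The widest RNA gap was between MARS2 and MARS, −1.43 in young and −1.44 in senescent cells. The pairs share libraries and are no replicates, so no test was made. Within the cytosolic set, the 8 genes of the multisynthetase complex and the 12 outside it had footprint medians of 0.32 and 0.43 on heat shock in senescent cells and 0.25 and 0.20 in young cells, and all 20 were above 0 in the former.

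No synthetase passed edgeR's test between senescent and young cells. At rest 0 of 36 were called in RNA (0.0379% of all genes), footprints (0% of all genes) or efficiency (0.00896%), 0 had an unadjusted p under 0.05 and DESeq2 called 0. CARS, the cysteinyl enzyme, had the highest RNA difference, with 55.7 and 71.3 CPM in young and 84.5 and 102 CPM in senescent controls, a difference of 0.55 ± 0.28 (edgeR adjusted p = 0.768 without and 0.0789 with the block). Its senescent libraries lay above the young ones. CARS was also highest among cytosolic footprints, at 0.48 ± 0.23 (edgeR adjusted p = 0.656). The cytosolic RNA median was 0.08, with 15 of 20 above 0, and the mitochondrial median −0.05, with 12 of 16 below 0. For footprints the medians were 0.18 and 0.12, against −0.01 for all genes, and EARS2 was the highest mitochondrial gene at 0.61 ± 0.27.

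Under heat shock senescent and young cells again gave 0 calls among the 36 with edgeR or DESeq2. The background was 0% of all genes in RNA, 0.00886% in footprints and 0% in efficiency, and 0, 2 and 1 of the 36 had an unadjusted p under 0.05. The cytosolic footprint median was 0.27, with 19 of 20 above 0, and the mitochondrial median 0.11, with 10 of 16. FARSB had 242 and 258 CPM in senescent against 179.9 and 147 CPM in young heat-shocked libraries, a difference of 0.61 ± 0.18 (edgeR adjusted p = 0.271). Its groups did not overlap. In RNA the cytosolic median was −0.06 and the mitochondrial −0.08, with CARS highest at 0.50 ± 0.28 and NARS lowest among cytosolic genes at −0.33 ± 0.26.

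The heat response itself, senescent minus young, was called by edgeR or DESeq2 for 0 of the 36 in RNA (0% of all genes), footprints (0%) or efficiency (0.00896%), with an unadjusted p under 0.05 for 0, 1 and 0 of them. For footprints FARSB had the highest cytosolic difference, 0.64 ± 0.26 (edgeR adjusted p = 0.834), and VARS the lowest, −0.46 ± 0.27. The call of EPRS and FARSB in senescent cells alone is therefore not shown to be a difference between the states. In RNA 15 of 20 cytosolic genes were below 0, with a median of −0.12, from −0.36 ± 0.34 for TARS to 0.26 ± 0.29 for VARS. The MARS2 RNA value was −1.31 in each state.

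Genes that work beside the synthetases were followed as lists. Of the 3 complex partners, AIMP1, the scaffold that binds transfer RNA, rose in senescent footprints, from 87.7 and 80.6 CPM in controls to 134 and 140.6 after heat shock, a change of 0.71 ± 0.18 (edgeR adjusted p = 0.0481). The AIMP1 call was lost with the young controls counted as 1 sample (edgeR adjusted p = 0.156). It was also lost on leaving out any 1 Ribo-seq library except senescent heat replicate 1 (edgeR adjusted p = 0.0615 to 0.156). AIMP2 was at 0.00 ± 0.22 and EEF1E1 at 0.48 ± 0.20. EEF1A1, EEF1B2, EEF1D and EEF1G, subunits of the elongation factor that delivers charged transfer RNA to the ribosome, took another course. In senescent footprints 0 of 4 were called and all 4 lay below 0, from −0.74 to −0.49. Their RNA was above 0 for all 4 in both states, and with the block EEF1G rose in senescent RNA by 0.50 ± 0.17 (edgeR adjusted p = 0.421 without and 0.0462 with the block). With TMM scaling the elongation factor and cytosolic synthetase footprints thus lay on opposite sides of 0 in senescent cells. With library size alone, 12 of the 20 cytosolic synthetases were above 0.

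Of 6 genes for mitochondrial charging and delivery, 0 passed without the block. MTFMT, which formylates the methionyl-tRNA made by MARS2, had an RNA change of −0.71 ± 0.24 in young cells (edgeR adjusted p = 0.321 without and 0.0494 with the block) and −0.63 ± 0.24 in senescent cells (edgeR adjusted p = 0.517 and 0.0848). TUFM, the mitochondrial elongation factor, was at 0.55 ± 0.20 in young and 0.41 ± 0.20 in senescent footprints without passing. Of 5 genes for proofreading and selenocysteine, 0 passed, and all 5 were above 0 in footprints in both states.

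Of 16 genes of the amino acid response, 3 (ATF4, DDIT3 and SLC3A2) rose in young RNA and 0 passed in senescent RNA without the block. In footprints 3 rose in young cells, and 4 rose and 3 fell in senescent cells. The counts stand beside backgrounds of 1.14% and 0.577% of all genes called in RNA and 1.15% and 8.35% in footprints, so those of the states are not to be compared directly. ATF4, the factor that drives the response, went from 27.2 and 22.7 CPM of footprints in young controls to 213 and 257 after heat shock, and from 18.5 and 31.6 to 265 and 417 in senescent cells. Its footprints rose by 3.23 ± 0.33 (edgeR adjusted p = 0.00206) and 3.76 ± 0.34 (edgeR adjusted p = 0.000983). The other footprint rises were DDIT3 and SLC3A2 in both states and GCN1 in senescent cells, and EIF2AK4, the kinase that senses uncharged transfer RNA, SESN2 and SLC7A11 fell in senescent cells. ASNS, the asparagine synthetase and a known ATF4 target, was at 0.40 ± 0.34 and 0.68 ± 0.34 and passed in neither state. With the young controls counted as 1 sample, the footprint calls of ATF4 in both states and of DDIT3 and SLC3A2 in senescent cells were kept (edgeR adjusted p = 0.0304 for ATF4 in young cells), and the other 6 were lost, at 0.0658 to 0.302. The ATF4 footprint calls were kept whichever Ribo-seq library was left out. DDIT3 and SLC3A2 in young footprints were lost without young control replicate 1 or 2 or young heat replicate 1 (edgeR adjusted p = 0.0626 to 0.321). In senescent footprints DDIT3 was lost without senescent control replicate 2 (0.0504), and SLC3A2 without senescent control replicate 1 (0.0991) or senescent heat replicate 2 (0.0848). EIF2AK4, SESN2 and SLC7A11 were lost without either young control, either senescent control or senescent heat replicate 2 (edgeR adjusted p = 0.0574 to 0.126), and GCN1 without any library except senescent heat replicate 1 (0.0548 to 0.170). The RNA calls in young cells were each lost without young control replicate 1 or 2, young heat replicate 1 or either senescent control (edgeR adjusted p = 0.0546 to 0.341). ATF4 and SLC3A2 were lost without young heat replicate 2 (0.137 and 0.165), and SLC3A2 without either senescent heat library (0.0584 and 0.0598).

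With the block, 3 genes of this list rose in young RNA and 1, CHAC1, fell. Over all genes, 3.64% were called higher and 5.13% lower there. In senescent RNA 2 rose and 3 fell with the block, where 2.66% of all genes were called higher and 3.62% lower. ATF4 rose by 0.63 ± 0.20 (edgeR adjusted p = 0.377 without and 0.0238 with the block) and SLC3A2, a chain of amino acid transporters, by 1.20 ± 0.30 (edgeR adjusted p = 0.214 and 0.00368). The genes that fell were CHAC1, which degrades glutathione, at −2.24 ± 0.46 (edgeR adjusted p = 0.115 and 0.00138), SLC7A11, a cystine transporter, at −1.25 ± 0.34 (edgeR adjusted p = 0.246 and 0.0409), and SLC38A2, a neutral amino acid transporter, at −0.78 ± 0.34 (edgeR adjusted p = 0.608 and 0.0305). The highest footprint value of a cytosolic synthetase on heat shock was the 0.88 of NARS in young cells.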

How the data were processed

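The members and gene lists were chosen with earlier results of these data known. Per gene, the authors deposited expected counts from RSEM and TPM, per the file headers. The expected counts held whole numbers and needed no rounding. Tools named in the submitters' processing notes are Bowtie2, STAR and RSEM, with build hg19. Their roles and versions, the annotation and the strand setting were not given in the sources used.

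After filterByExpr and TMM scaling, the expected counts were fitted by edgeR 4.0.16 in R 4.3.3, with 1 mean per group and all 8 libraries of an assay, leaving 4 residual degrees of freedom (8 for efficiency, over all 16 libraries). P-values were adjusted over all genes of a comparison. SE is approximate, being the change divided by the root of the F statistic. Log2 CPM used a prior count of 2. Symbols follow the tables, where older names such as AARS are used.

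In RNA-seq the deviations of same-numbered libraries correlated at 0.481 to 0.658 in the 6 pairs of groups, so the numbers were taken to pair the libraries. In Ribo-seq they correlated at −0.04 to 0.33, and the numbers were not taken to pair the libraries there. The Ribo-seq values near 0 (−0.0342, −0.038 and −0.0281) all involved the young controls. Among the other Ribo-seq groups the values were 0.245, 0.252 and 0.329, so whether the numbers pair Ribo-seq libraries is not settled. No source used here says what the numbers mark.

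Named are all members called, with or without the RNA block, and the highest and lowest change in each compartment among members of at least 10 CPM. Any other member named was chosen after seeing its values. Alternatives were relative log expression or library-size scaling, no filter, the block, DESeq2 1.42.0, limma 3.58.1 on log2(TPM + 1) for genes reaching a TPM of 1 in 2 libraries, and each library left out. Added after seeing the data were the young control Ribo-seq libraries as 1 sample, the block with each RNA library left out, and both kinds of refit for called genes of the other lists. The edgeR fit without the block was run on simulated data with changes put into young heat-shocked libraries. The block, DESeq2, limma and the fits with a library left out were not tested in this way. Reads carry no molecular identifiers. Exon numbers came from GENCODE by symbol, for 12516 of 13177 genes.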

Additional observations from a re-analysis of the deposited data

How the results depend on the processing

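Among the 36 genes, the number called changed with the processing for heat shock only. In young RNA it was 0, but 1 (MARS2) with library size only, no filter, DESeq2 or limma, and 3 with the replicate block. In senescent RNA it was 0, but 4 with the replicate block and 2 with DESeq2. In young footprints it was 0, but 1 (NARS) with no filter and 2 with DESeq2. In senescent footprints it was 2, but 0 with library size only, limma or the young controls as 1 sample, 1 (EPRS) with no filter and 4 with the replicate block (EPRS, FARSB, LARS and WARS), and 0 to 2 with each library left out. In senescent efficiency it was 0, but 2 with the replicate block (FARSB and TARS2) and 1 with DESeq2. The share of all genes called is given above only for the main test and for the block in RNA. Without that share a changed count is no result about these genes. The cause was not tested.

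With library size only, CARS2 in young RNA turned to −0.0672, VARS2 in senescent RNA to −0.0115 and IARS in senescent footprints to −0.18. With limma, CARS2 turned to −0.0448 in young RNA on heat shock and to −0.021 at rest, and IARS to −0.22. None of these passed the test either way.

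With each library left out in turn, the cytosolic median minus the mitochondrial median ranged in RNA from 0.23 to 0.42 on heat shock in young and 0.0069 to 0.21 in senescent cells, 0.0476 to 0.20 at rest, −0.12 to 0.0562 under heat shock and −0.18 to −0.0387 for the difference of responses. In footprints it ranged from 0.15 to 0.37 and 0.25 to 0.41 on heat shock, −0.0211 to 0.29 under heat shock and −0.20 to 0.12 for the difference of responses. In efficiency it ranged from −0.16 to 0.0835 and 0.0546 to 0.42 on heat shock and −0.0449 to 0.34 for the difference. The order of the sets on heat shock thus held in RNA and footprints in each of these fits.

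Single genes near 0 turned with a library. In RNA these were DARS (−0.62 to 0.32), SARS2 (−0.36 to 0.0362) and CARS2 (−0.0052 to 0.24) at rest and IARS2 (−0.57 to 0.0754) in the difference. In footprints they were SARS2 (−0.18 to 2.28) and IARS (−0.0808 to 0.19) on heat shock in senescent cells, WARS (−0.24 to 0.0562) at rest and IARS2 (−0.67 to 0.0548) under heat shock. In efficiency they were FARS2 in young cells (−0.28 to 0.0642), IARS2 in senescent cells (−0.64 to 0.12), WARS at rest (−0.43 to 0.13), WARS2 under heat shock (−0.67 to 0.25) and SARS2 in the difference (−0.24 to 2.22). Depth limits the mitochondrial footprints most, with 6 to 47 counts per library for PARS2.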
